A study of Oryza sativa Japonica Group and Oryza sativa Indica Group with 24 samples.

Results

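The salt response of agami was set against that of m103, 2 japonica rice cultivars of which the series text calls agami tolerant of salt and m103 sensitive. The quantity described is the change with salt in agami minus the change with salt in m103, on a log2 scale, and it rests on 12 of the series' 24 samples, chosen by the cultivar and treatment in their titles. RNA came from the crown and growing point, the stem base that holds the shoot meristem, at the start of panicle formation, and each sample was measured on 1 Affymetrix rice array. The 4 groups were agami under salt stress, agami under unstressed control conditions, m103 under salt stress and m103 under control conditions, with 3 arrays each, which the titles call biological replicates. The other 12 arrays belong to 2 sets that both carry the name of the indica cultivar ir29, again with 3 salt and 3 control arrays each, and they were kept apart by the numbers in their titles as a first and a second set. The series text also names ir63731, a tolerant indica, which no title carries, so no tolerance is assumed for either ir29-labelled set. Every sample's description says unstressed, so the titles decided between control and salt, as the treatment field also has them. No source used here gives the salt level, the length of the stress, the age of the plants or the number of plants in a sample.

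Salt reaches a plant as an osmotic stress at first and as sodium accumulating in its tissues later. Plant cells answer with protective hydrophilic proteins, compatible solutes, ion transport, redox and metal-binding proteins, chaperones and changes in hormone signalling, and the young panicle forms from a meristem that is easily harmed at this stage. Genes that respond to salt in a sensitive cultivar can do so less, more or in the other direction in a tolerant one, and the difference between both responses measures that directly.

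Values are scaled signals: the deposited intensities multiplied so that each array has the same trimmed mean. Changes are differences of log2(scaled signal + 16), so those of dim probe sets are understated. A probe set, the array's unit of measurement for a transcript, was called at an adjusted p under 0.05 from limma over all 34316 probe sets tested, and a difference above 0 means that the change in agami was the higher one. The arrays deposited for agami and m103 salt replicate 1 had a trimmed mean between 500.07 and 500.08, and the other 5 m103 arrays lay between 65.12 and 115.71 before scaling. Leaving out m103 salt replicate 1, so that arrays of 1 deposited scale were compared within each cultivar, gave 277 called differences in place of the 349 described below. Replicate arrays correlated at a Pearson's r of 0.962 to 0.971. Actin control probe sets at the 3' and 5' ends, whose ratio rises as RNA breaks down, gave ratios of 4.52 to 6.25 in salt-treated agami and 4.18 to 5.3 in control agami, against 5.57 to 5.95 in salt-treated m103 and 4.46 to 5.59 in control m103. The same ratio of GAPDH control probe sets was far less even, from 0.22 (agami control 2) to 16.1 (m103 control 1). These controls therefore do not settle whether RNA quality was alike.

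The tissue label was set against marker genes. The meristem homeobox gene OSH1 was between 3986 and 7506 on all 12 arrays and the stem cell regulator FON1 between 889 and 1325, while the seed storage gene GLUA-1 (1.4 to 22.3) and the Casparian strip gene CASP1 of root endodermis (7.68 to 89) were low. Other markers of the growing point and young panicle were mixed. HOS58 (6029 to 8491) and MADS18 (3178 to 4124) were high and LOG (88.4 to 270.4) was lower. MADS15 ran from 2.6 to 846, and MADS34 (1.6 to 43.5) was too dim to be tested. The root gene Lsi1 ran from 93.5 to 1434 and the seed gene GLUA-2 from 72.4 to 213. Leaf genes were present, with the chlorophyll gene CHLH between 1053 and 2559.6. The summed level of 16 meristem markers was 29841 to 31541 in salt-treated agami and 27984 to 30959 in control agami, against 30795 to 33689 in salt-treated m103 and 32984 to 33926 in control m103. For 18 leaf markers the sums were 104134 to 109489 in salt-treated agami and 94728 to 104441 in control agami, against 108633 to 138365 in salt-treated m103 and 120792 to 136291 in control m103. The 26 genes meant as root markers summed to 31457 to 33575 in salt-treated agami and 33194 to 37131 in control agami, against 27045 to 33065 in salt-treated m103 and 32792 to 39092 in control m103. The 5 seed markers summed to 3248 to 4114 in salt-treated agami and 3889 to 4555 in control agami, against 2633 to 3154 in salt-treated m103 and 4220.2 to 5411 in control m103, where the m103 groups did not overlap. None of the markers in these 4 lists had a called difference, and the part of tissue makeup in the results below was not tested. In whole tissue, fewer cells of a type and less RNA per cell cannot be told apart.

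The salt responses of both cultivars differed in 349 of 34316 probe sets (1.02%), of which 181 (0.527%) had the higher change in agami and 168 (0.49%) the lower one. At least a 2-fold difference was reached by 73 of the higher and 127 of the lower. Before adjustment 3865 probe sets had a p under 0.05. For scale, in the same fit salt changed 321 probe sets in agami (0.935%; 179 rose, 0.522%, and 142 fell, 0.414%) and 3038 in m103 (8.85%; 1432 rose, 4.17%, and 1606 fell, 4.68%). The count of 349 depended on single arrays: it was 755 without agami control replicate 1, and 142 and 171 without agami control replicates 3 and 2. It was 177, 230 and 218 without agami salt replicates 1, 2 and 3. Without m103 salt replicate 2 it was 128, and without m103 control replicates 1 and 3 it was 215 and 151. None of the 349 changed its sign in any of the 21 distinct alternatives. Some of these could not change a sign, because a new filter, prior variance or block, or fitting the japonica arrays alone, leaves the difference itself as it is. The rest reused these arrays on probe sets already chosen by their difference, so the unchanged signs are weak evidence.

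In most called probe sets m103 changed more than agami did. The change was larger in size in m103 in 311 of the 349 (89.1%), against 56.1% of all probe sets tested. Among the 168 lower ones the median change was -0.13 in agami and 1.31 in m103, and among the 181 higher ones it was 0.12 in agami and -0.81 in m103. Without regard to sign, the median size of the change over the 349 was 0.26 in agami and 0.95 in m103. Over all tested probe sets the median size was 0.19 in agami and 0.23 in m103. Salt and control arrays did not overlap in 146 of the 349 in agami (19.2% of all tested) and in 335 in m103 (27.6% of all tested). These values describe probe sets chosen by the difference itself, which favours changes of opposite sign, as in 228 of the 349. The salt arrays of agami and m103 did not overlap in 298 of them (85.4%, against 31.9% of all tested), and their control arrays did not overlap in 188 (53.9%, against 29.4%). Among the 181 with the higher change in agami, the median of agami minus m103 was 0.52 with salt and -0.37 without, on the log2 scale. Among the 168 lower ones the same medians were -1.08 with salt and 0.29 without.

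**Figure D1:**
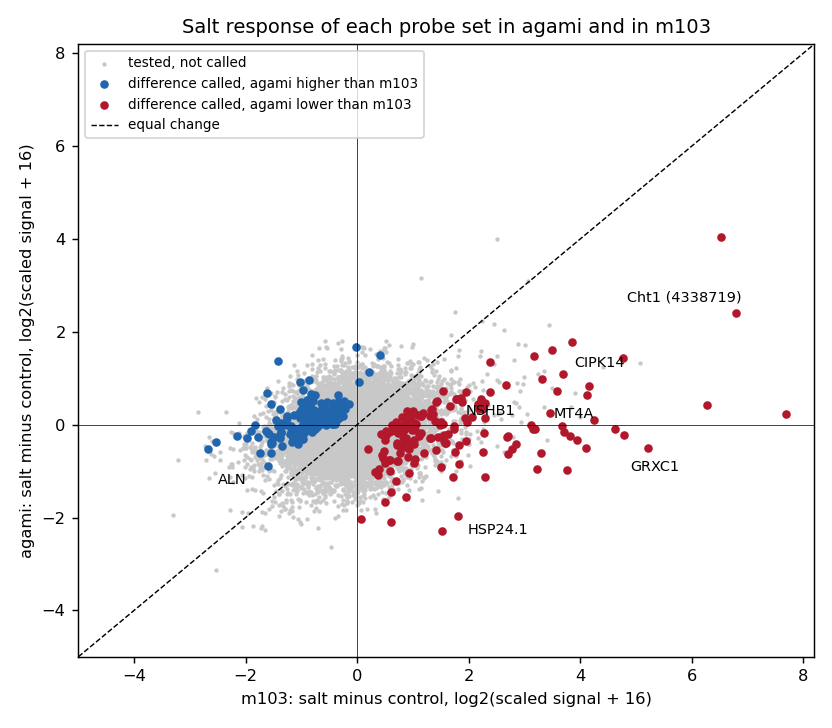
Change with salt in agami (vertical, log2) against the change with salt in m103 (horizontal, log2) for the 34316 tested probe sets, with grey points for those not called, blue for the 181 differences above 0 and red for the 168 below 0. The red points spread to the right by up to 7.70 in m103 while most stay near 0 on the agami axis, and Cht1, CIPK14 and ALN are the labelled genes that passed the threshold in both cultivars with the same sign.

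A gene was known for 290 of the 349 and an informative name for 60, which came to 53 genes when each was read by its brightest probe set: 31 with the lower change in agami and 22 with the higher one. The 4 largest of these differences, all below 0, were those of 2 glutaredoxins, a chitinase and a metallothionein.

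Glutaredoxins reduce disulfide bonds with glutathione, and thioredoxins and nucleoredoxins do so with other electron donors. Of 46 tested glutaredoxins, thioredoxins and protein disulfide isomerases, 4 had a called difference, all below 0, and 42 did not pass, where 0.49% of all probe sets tested were called below 0. GRXC1 had scaled signals of 5.7, 4.1 and 8 in salt-treated agami and 6.4, 13.9 and 28.4 in control agami, against 2103, 1821 and 726 in salt-treated m103 and 45.4, 35.1 and 1.89 in control m103. The m103 salt arrays stood far above the other 9 arrays, which overlapped. Group means were 5.93 in salt-treated agami, 16.2 in control agami and 27.5 in control m103, below the filter's signal of about 28. GRXC1 thus passed the filter only through the salt-treated m103 arrays. The change of GRXC1 was -0.50 ± 0.44 in agami (adjusted p = 0.71) and 5.22 ± 0.44 in m103 (adjusted p = 5.0e-08), and the difference between them was -5.72 ± 0.62 (SE, adjusted p = 3.3e-05). Scaled signals of GRXC10 were 15.5, 6.1 and 26.8 on the agami salt arrays and 29.4, 7.8 and 37.8 on the agami controls, beside 795, 764 and 643 on the m103 salt arrays and 27.7, 40.6 and 30.9 on the m103 controls. Again the m103 salt arrays alone were high, and the other groups overlapped. GRXC10 rose by 3.94 ± 0.42 in m103, and its difference was -4.26 ± 0.59 (SE, adjusted p = 4.6e-04).

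GRXC15, another glutaredoxin, was brighter with salt on the arrays of both cultivars and rose in m103. For GRXC15 the agami salt arrays read 79.9, 163 and 148 and the agami controls 62.7, 59.9 and 44.6, while the m103 salt arrays read 2338, 2219 and 1675 and the m103 controls 217, 191 and 171. The salt arrays lay above the controls in both, and agami lay below m103 with and without salt. Its changes were 0.99 ± 0.34 in agami (adjusted p = 0.19) and 3.31 ± 0.34 in m103 (adjusted p = 8.4e-07), with a difference of -2.33 ± 0.48 (SE, adjusted p = 0.017) that was no longer called without any 1 of agami salt 1, m103 salt 2 and m103 control 3 (adjusted p up to 0.063). The nucleoredoxin Nrx1-1 had scaled signals of 756, 694 and 702 in salt-treated agami and 675, 644 and 734 in control agami, against 2483, 2016 and 1633 in salt-treated m103 and 534, 555 and 435 in control m103. The m103 salt arrays were the highest of the 12, and the agami controls lay above the m103 controls. Nrx1-1 changed by 0.067 ± 0.15 in agami (adjusted p = 0.92) and by 1.96 ± 0.15 in m103 (adjusted p = 1.3e-08), a difference of -1.89 ± 0.22 (SE, adjusted p = 3.7e-05). This standard error was the smallest among the 15 named genes with the largest differences below 0. The list median of the difference was -0.045, against -0.017 for all probe sets tested, and the members ran from -5.72 (GRXC1) to 0.72 (GRXS9).

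**Figure D2:**
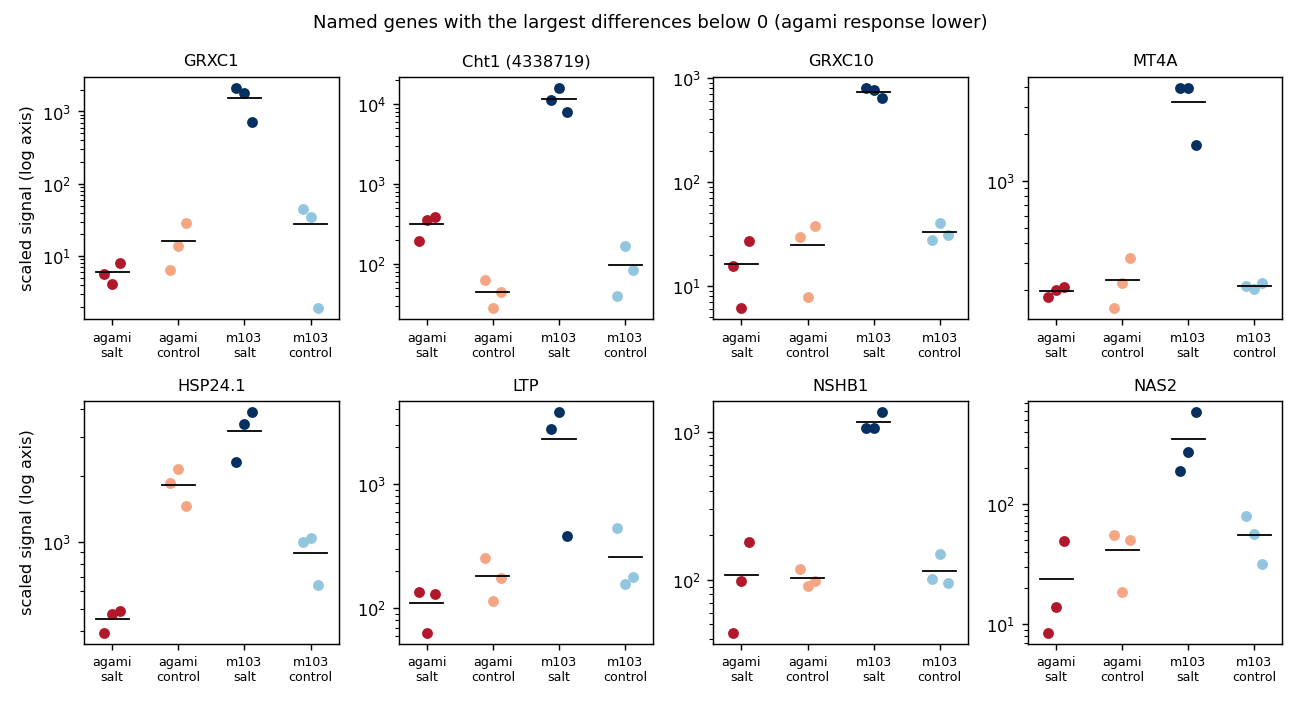
Scaled signal (log axis) on each of the 12 arrays for the 8 named genes with the largest differences below 0, by group, with points for arrays and bars for the mean of 3. In every panel except that of LTP all 3 m103 salt arrays stand above every other array, and in the panel of HSP24.1 the agami salt arrays lie below every other array.

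Chitinases cut chitin, a polymer of fungal walls, and many are induced by stress. The chitinase Cht1 (gene 4338719) had scaled signals of 195, 355 and 381 in salt-treated agami and 63, 27.7 and 44.3 in control agami, against 11174, 15727 and 7952 in salt-treated m103 and 39.8, 168 and 84.4 in control m103. Salt arrays lay above controls in both cultivars, the controls overlapped, and the agami salt arrays stayed far below those of m103. Cht1 rose by 2.41 ± 0.44 in agami (adjusted p = 0.01) and by 6.79 ± 0.44 in m103 (adjusted p = 6.5e-10), and the difference was -4.39 ± 0.63 (SE, adjusted p = 6.8e-04). The other 8 tested chitinases did not pass, although 7 of them lay below 0, and 0.49% of all probe sets were called below 0. Their differences included -2.95 for Cht2 (adjusted p = 0.064), -2.10 for another gene named Cht1 (4342115; adjusted p = 0.059) and 1.13 for Cht7. The list's median difference was -2.28, with median changes of 0.0074 in agami and 2.26 in m103, and 2 of its members rose in agami and 6 in m103, where 0.522% and 4.17% of all probe sets did. Among 5 defence proteins none had a called difference, and the values ran from -3.74 (PBZ1) to 0.16 (PR2).

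Metallothioneins are small cysteine-rich proteins that bind metals. Scaled signals of MT4A were 181, 201 and 211 on the agami salt arrays and 153, 224 and 324 on the agami controls, beside 3956, 3946 and 1707 on the m103 salt arrays and 213, 204 and 221 on the m103 controls. Only the m103 salt arrays stood apart, with replicate 3 the lowest of them. The change was -0.17 ± 0.30 in agami (adjusted p = 0.89) and 3.72 ± 0.30 in m103 (adjusted p = 3.0e-08), and the difference was -3.89 ± 0.43 (SE, adjusted p = 3.3e-05). MT4A was the only call among 7 metallothioneins, beside 0.49% of all probe sets called below 0. The other 6 did not pass and ran from -0.85 (MT2A) to -0.049 (MT2C), with a list median of -0.45. Non-symbiotic haemoglobins bind oxygen tightly and remove nitric oxide. For NSHB1 the agami salt arrays read 43.9, 97.9 and 179 and the agami controls 119, 90.7 and 98.6, while the m103 salt arrays read 1058, 1067 and 1348 and the m103 controls 101, 149 and 94.5. The agami groups and the m103 controls overlapped, and every m103 salt array stood above them. NSHB1 had a difference of -3.28 ± 0.43 (SE, adjusted p = 2.7e-04) on this brightest probe set, whose design allows cross-hybridization with related transcripts, and -3.26 ± 0.53 and -4.60 ± 0.65 on the other 2, which were called as well. The probe set at -4.60 passed the filter only through the salt-treated m103 arrays. Its means were 10.5 in salt-treated agami, 25 in control agami and 10.3 in control m103. These probe sets share a target name and do not count as separate evidence. NSHB2 lay at -2.46 and did not pass (adjusted p = 0.087).

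Iron and zinc genes gave 3 calls among 42 tested, all lower in agami, against 0.49% of all probe sets. NAS2 encodes a nicotianamine synthase, which makes a chelator that carries iron and zinc. In agami NAS2 stood at 8.5, 13.8 and 49.4 with salt and 55.8, 18.5 and 50.6 without, and in m103 at 189, 272 and 579 with salt and 79.5, 56.1 and 31.5 without (scaled signal). The m103 salt arrays were above all others, and the agami groups overlapped. Its difference was -2.85 ± 0.67 (SE, adjusted p = 0.039), which was no longer called without any 1 array other than agami salt 3, agami control 2, m103 salt 1 and m103 control 1 (adjusted p up to 0.13). The metal transporter Nramp1 had scaled signals of 79.1, 152 and 157 in salt-treated agami and 100.5, 148 and 89.1 in control agami, against 565, 838 and 884 in salt-treated m103 and 165, 114 and 147 in control m103. Here too the m103 salt arrays stood alone. Nramp1 rose by 2.29 ± 0.33 in m103 and changed by 0.15 ± 0.33 in agami (adjusted p = 0.92), with a difference of -2.14 ± 0.47 (SE, adjusted p = 0.025) that was no longer called without any 1 of agami salt 1, agami control 2, m103 salt 2 and m103 control 2 and 3 (adjusted p up to 0.09). BHLH063, a transcription factor whose listed aliases are names of iron-response factors, had scaled signals of 301, 336 and 312 in salt-treated agami and 327, 284 and 325 in control agami, against 727, 732 and 867 in salt-treated m103 and 284, 261 and 226 in control m103. The other groups overlapped below the m103 salt arrays, and the difference was -1.52 ± 0.25 (SE, adjusted p = 0.0026). The remaining 39 members ran from -1.46 for NAS1, another nicotianamine synthase, to 2.08 for the vacuolar iron transporter VIT2, and the list median was -0.12.

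Heat shock proteins keep other proteins folded or pull them out of aggregates, and 3 of 24 had a called difference, all below 0 (0.49% over all probe sets). The small heat shock protein gene HSP24.1 had scaled signals of 391, 475 and 488 in salt-treated agami and 1860.1, 2145 and 1453 in control agami, against 2311, 3401 and 3849.6 in salt-treated m103 and 1001, 1047 and 644 in control m103. No group overlapped its partner: salt arrays lay below controls in agami and above them in m103, agami lay below m103 with salt and above it without. HSP24.1 fell by 1.96 (SE 0.39, adjusted p = 0.017) in agami and rose by 1.81 ± 0.39 in m103 (adjusted p = 0.004), which gave a difference of -3.77 ± 0.56 (SE, adjusted p = 9.1e-04). CLPB1, the chaperone that dissolves aggregates, had scaled signals of 379, 299 and 246 in salt-treated agami and 267, 291 and 255 in control agami, against 220.4, 302 and 270.3 in salt-treated m103 and 74.3, 40.6 and 42.8 in control m103. The m103 controls alone were low, and the m103 salt arrays overlapped with agami. CLPB1 changed by 0.16 ± 0.24 in agami (adjusted p = 0.86) and rose by 2.05 ± 0.24 in m103 (adjusted p = 5.0e-06), a difference of -1.89 ± 0.34 (SE, adjusted p = 0.0063).

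For the small heat shock protein gene hsp17.9 the agami salt arrays read 3106, 3657 and 4111 and the agami controls 4242, 4923 and 4012, while the m103 salt arrays read 5055, 5699.7 and 5351 and the m103 controls 1975, 2295 and 2115. Control agami exceeded control m103, and the order of both cultivars was the opposite with salt. Its difference was -1.61 ± 0.32 (SE, adjusted p = 0.013), and it was no longer called without the intensity trend. The list's median difference was -0.42, with median changes of -0.18 in agami and 0.35 in m103, and 16 of 24 members lay below 0. HSP81-1 was not called on its brightest probe set (-0.51 ± 0.14) and was called on a dimmer one (-1.45 ± 0.32). None of 18 heat shock factors passed on its brightest probe set, where they ran from -1.54 (HSFB2B) to 0.68 (HSFA2B). HSFB2C, at -1.19 ± 0.37 there, had a called difference on a dimmer probe set, -2.10 ± 0.52, on which it fell by 2.03 in agami. HSFA2C, a heat shock factor outside this list, was not called on its brightest probe set (-1.38 ± 0.40). On another of nearly the same brightness it was called (-1.09 ± 0.24 (SE, adjusted p = 0.025)).

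**Figure D3:**
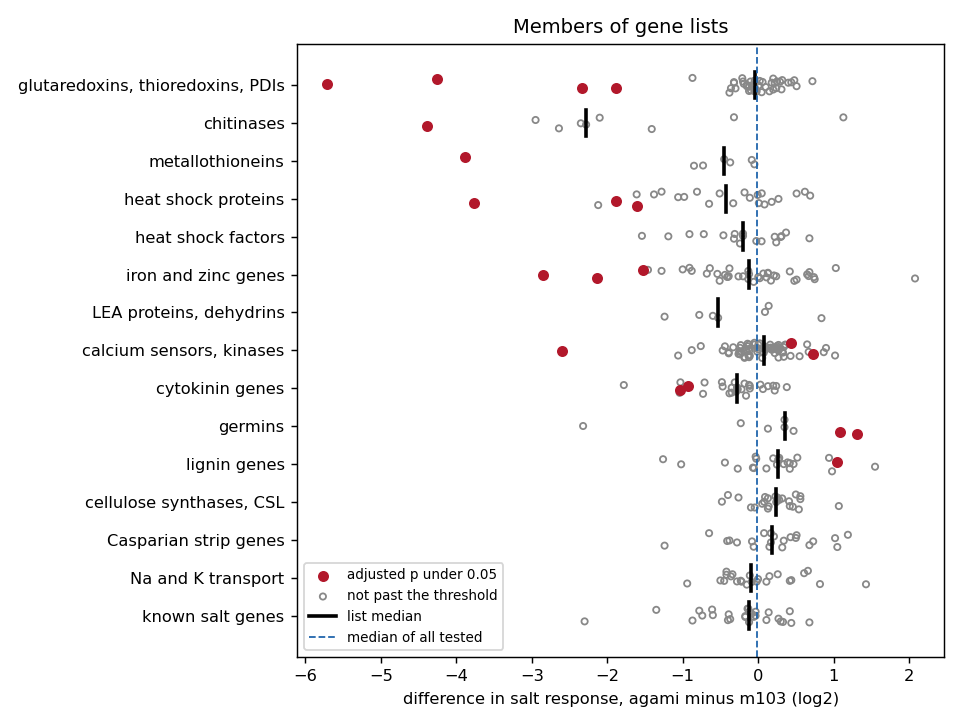
Difference in salt response, agami minus m103 (log2, horizontal), of each tested gene in 15 lists, with filled red points for genes at an adjusted p under 0.05, open points for the rest, black bars for list medians and a dashed line for the median of all tested probe sets, -0.017. The 9 chitinases lie mostly to the left of 0 with 1 filled point, while the glutaredoxin list centres on 0 with 4 filled points far to its left.

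Calcium sensors and the kinases they bind read calcium signals, which salt sets off within cells. Of 69 such genes 1 was lower and 2 were higher in agami, beside 0.49% and 0.527% of all probe sets tested. Counts this small were not tested against those shares and are not read as a result about the list. The kinase gene CIPK14 had scaled signals of 326, 522 and 439.8 in salt-treated agami and 137, 257 and 192 in control agami, against 5149, 3355 and 2987 in salt-treated m103 and 248, 383 and 214 in control m103. Salt arrays were above controls in both cultivars, the controls overlapped, and every m103 salt array exceeded every agami salt array. CIPK14 rose by 1.09 ± 0.22 in agami (adjusted p = 0.019) and by 3.69 ± 0.22 in m103 (adjusted p = 2.2e-10), with a difference of -2.60 ± 0.31 (SE, adjusted p = 7.3e-05). In agami CIPK18 stood at 2851, 2951 and 2929 with salt and 3099, 2647 and 2655 without, and in m103 at 2587, 2086 and 2444 with salt and 3622, 3686 and 3997 without (scaled signal). The agami groups overlapped, whereas all m103 salt arrays lay below the m103 controls. It changed by 0.059 ± 0.094 in agami and fell by 0.67 (SE 0.094) in m103, and the difference was 0.73 ± 0.13 (SE, adjusted p = 0.0071). Scaled signals of CIPK2 were 6063, 6034 and 6418 on the agami salt arrays and 5988, 6312 and 6148 on the agami controls, beside 5277, 5123 and 5588 on the m103 salt arrays and 7202, 7094 and 7231 on the m103 controls. The groups were ordered as for CIPK18 and were closer together. CIPK2 gave 0.43 ± 0.10 (SE, adjusted p = 0.04) on a probe set open to cross-hybridization, 0.17 ± 0.29 and 0.48 ± 0.64 on others that were not called, and the call ended without any 1 array other than agami control 1 and m103 salt 3 (adjusted p up to 0.13). The median of the calcium list was 0.074.

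LTP, a lipid transfer protein, was bright in 2 of the 3 m103 salt arrays. LTP had scaled signals of 136, 63.6 and 131 in salt-treated agami and 254, 114 and 176 in control agami, against 2786, 3776 and 385 in salt-treated m103 and 447, 156 and 179 in control m103. Replicate 3 of salt-treated m103 fell within the range of its controls. The difference of -3.34 ± 0.77 (SE, adjusted p = 0.035), on a probe set open to cross-hybridization, was no longer called without any 1 array other than agami control 1 and 2, m103 salt 3 and m103 control 1 (adjusted p up to 0.13). The plasma membrane aquaporin PIP2-4 had a difference of -1.78 ± 0.33 (SE, adjusted p = 0.0076), with a rise of 1.56 ± 0.23 in m103 and a change of -0.23 ± 0.23 in agami (adjusted p = 0.77). PIP2-4 was the only call among 24 aquaporins, beside 0.49% of all probe sets called below 0. The remaining aquaporins did not pass, between -1.19 (NIP4-1) and 1.22 (TIP4-1). The gene named pinA had a difference of -1.83 ± 0.36 (SE, adjusted p = 0.013) and rose by 2.30 ± 0.26 in m103, and its call ended without agami control 3 (adjusted p = 0.051).

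Cytokinins promote cell division in the shoot meristem, and of 29 cytokinin genes 2 were lower in agami, beside 0.49% of all probe sets. The response regulator RR2 had scaled signals of 546, 489.6 and 464 in salt-treated agami and 490.1, 523 and 566 in control agami, against 843, 925 and 707 in salt-treated m103 and 383, 501 and 362 in control m103. Salt arrays of m103 lay above its controls and above salt-treated agami, and the agami groups overlapped. The difference was -1.04 ± 0.25 (SE, adjusted p = 0.041), which was no longer called without any 1 array other than agami control 1, m103 salt 3 and m103 control 2 (adjusted p up to 0.14). CKX11, which breaks cytokinins down, had scaled signals of 729, 946 and 770.1 in salt-treated agami and 967, 939 and 771 in control agami, against 2338, 1907 and 1716 in salt-treated m103 and 1057, 1169 and 1162 in control m103. Agami lay below m103 with and without salt. Its difference was -0.93 ± 0.23 (SE, adjusted p = 0.048), its other probe set was not called (0.059 ± 0.66), and the call ended without any 1 array other than agami salt 2 and m103 salt 3 (adjusted p up to 0.13). The cytokinin list had a median of -0.28, with 22 of 29 members below 0.

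Auxin genes gave 1 call in each direction among 56 tested, beside 0.527% and 0.49% of all probe sets called above and below 0. With so few calls this is not read as a result about the list. DAO, an enzyme that inactivates auxin by oxidation, had a difference of -0.91 ± 0.19 (SE, adjusted p = 0.016) with changes of 0.52 ± 0.13 in agami (adjusted p = 0.059) and 1.43 ± 0.13 in m103 (adjusted p = 1.7e-07), and the call ended without any 1 of agami salt 3 and m103 control 3 (adjusted p up to 0.066). The Aux/IAA repressor gene IAA1 (4334069) had the opposite sign, 0.79 ± 0.14 (SE, adjusted p = 0.0058), with a fall in m103 by 0.80 (SE 0.099) and a change of -0.0058 ± 0.099 in agami. Its call held whichever of the 12 arrays was left out. The median over the auxin list was 0.015.

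Some transcription factors rose in m103 while their change in agami did not pass. Hox22, a homeodomain-leucine zipper factor, had a difference of -1.44 ± 0.30 (SE, adjusted p = 0.018) with changes of 0.056 ± 0.21 in agami (adjusted p = 0.96) and 1.50 ± 0.21 in m103 (adjusted p = 6.2e-05), and it was no longer called without any 1 of agami salt 1 and m103 salt 2 (adjusted p up to 0.06). IPA1, which controls tillering and panicle branching, had -0.85 ± 0.18 (SE, adjusted p = 0.019) with a rise of 0.75 ± 0.13 in m103, and its call ended without any 1 of agami salt 3, agami control 2 and 3, m103 salt 2 and m103 control 1 and 3 (adjusted p up to 0.076). DOF2 fell by 0.66 in agami (SE 0.15, adjusted p = 0.037) while its change in m103 was 0.45 ± 0.15 (adjusted p = 0.067), for a difference of -1.10 ± 0.21 (SE, adjusted p = 0.011). DOF4 was at -0.74 ± 0.14 (SE, adjusted p = 0.011), a call that ended with arrays centred on their medians. For BZIP52 (-1.36 ± 0.30) and HAP3F, a subunit of the CCAAT-binding complex (-1.05 ± 0.22), the change passed in neither cultivar although the difference did. Both were no longer called when 1 array was left out, BZIP52 without any 1 of agami salt 1 and 3, agami control 2 and 3, m103 salt 1 and 2 and m103 control 3 (adjusted p up to 0.093) and HAP3F without any 1 of agami salt 1, agami control 2 and 3, m103 salt 1 and 2 and m103 control 3 (adjusted p up to 0.077). MADS56, a MADS-box factor of the flowering pathway, had the higher change in agami (0.66 ± 0.13 (SE, adjusted p = 0.01)), having fallen by 0.81 in m103.

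EXPB6, a wall-loosening expansin, had a difference of -1.11 ± 0.23 (SE, adjusted p = 0.018). It was the only called member of 24 expansins, beside 0.49% of all probe sets called below 0. Its call ended without any 1 of agami control 3, m103 salt 2 and m103 control 2 (adjusted p up to 0.071). The cytosolic glutamine synthetase gene GLN1-2 had -0.89 ± 0.21 (SE, adjusted p = 0.039) after a rise of 1.10 ± 0.15 in m103, a call that ended without any 1 array other than agami salt 2, agami control 1, m103 salt 3 and m103 control 2 (adjusted p up to 0.14). The glycolate oxidase GLO5 (-0.97 ± 0.21) and OSL2 (-0.94 ± 0.19) likewise rose in m103 with changes near 0 in agami. GLO5 was no longer called without any 1 array other than agami salt 3, agami control 1, m103 salt 3 and m103 control 1 (adjusted p up to 0.091), and OSL2 without any 1 of m103 salt 2 and m103 control 3 (adjusted p up to 0.053). Another probe set of GLO5 was not called (-0.53 ± 0.31), nor did its change in m103 pass (adjusted p = 0.096). IVD, of leucine breakdown, was at -1.03 ± 0.26 just inside the threshold, its other probe set was not called (-0.73 ± 0.25), and the call ended without any 1 array other than agami control 1 and m103 salt 3 (adjusted p up to 0.16).

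Genes with the higher change in agami had smaller differences, and among the 22 named ones the fall in m103 passed in all except PPOX1 and APY2. ADIPOR1, named after the adiponectin receptor family, had scaled signals of 3189.9, 3326 and 4092 in salt-treated agami and 5351, 2969 and 2659 in control agami, against 2996, 2282 and 2432 in salt-treated m103 and 6881, 5807 and 6525 in control m103. Salt arrays of m103 lay below its controls, agami groups overlapped, and agami lay above m103 with salt but below it without. The difference was 1.33 ± 0.28 (SE, adjusted p = 0.019), it was 0.98 ± 0.28 and 1.08 ± 0.27 on 2 dimmer probe sets that were not called, and the call ended without any 1 of agami salt 3, agami control 2 and 3, m103 salt 2 and m103 control 1 and 3 (adjusted p up to 0.076).

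Germins are extracellular glycoproteins, some of which are oxalate oxidases or superoxide dismutases, and 2 of 8 had a called difference, both above 0 (0.527% over all probe sets). Scaled signals of GER8 were 9826, 8679.6 and 11903 on the agami salt arrays and 12133, 7208 and 5682 on the agami controls, beside 8560.0, 6384 and 8452 on the m103 salt arrays and 15178, 13373 and 16932 on the m103 controls. Control agami ran below control m103, salt-treated agami ran above salt-treated m103, and agami control replicate 1 stood above the agami salt arrays. GER8 fell by 0.96 (SE 0.21) in m103 and changed by 0.34 ± 0.21 in agami (adjusted p = 0.53), with a difference of 1.31 ± 0.29 (SE, adjusted p = 0.029) on a probe set that may take up related transcripts and 1.40 ± 0.33 on another that was called, while a further one was not called (1.15 ± 0.30 (SE, adjusted p = 0.066)). The call on the brightest probe set ended without any 1 of agami salt 1 and 3, agami control 2 and 3, m103 salt 2 and m103 control 1 and 3 (adjusted p up to 0.1). For GER4 the agami salt arrays read 1376, 1394 and 1197 and the agami controls 1116, 1148 and 1098, while the m103 salt arrays read 1113, 1089 and 1276 and the m103 controls 2352, 1834 and 2149. Here the agami groups were within a narrow range and the m103 controls alone were high. Its difference of 1.08 ± 0.21 (SE, adjusted p = 0.01) was called whichever array was left out. The other 6 germins ran from -2.32 (GER2) to 0.47 (GER1), and the list median was 0.35.

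**Figure D4:**
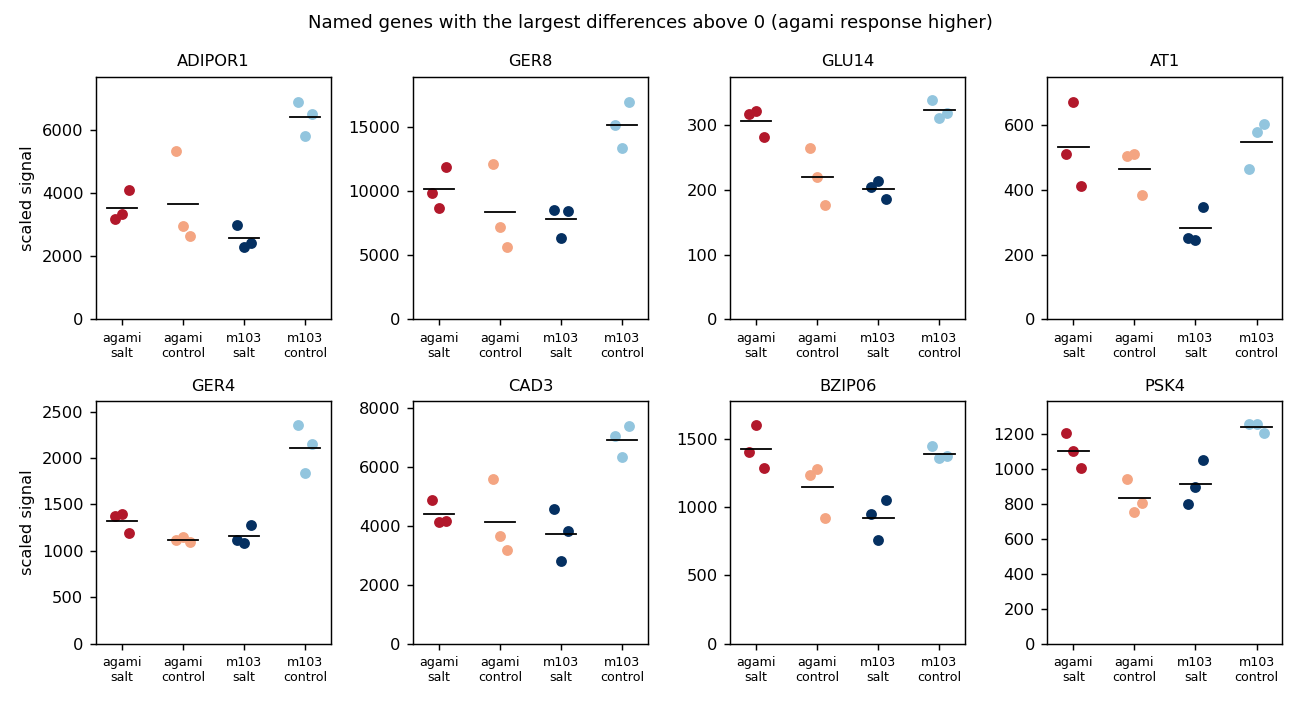
Scaled signal (linear axis from 0) on each of the 12 arrays for the 8 named genes with the largest differences above 0, by group, with points for arrays and bars for the mean of 3. The m103 salt arrays lie below the m103 controls in all 8 panels, and agami control replicate 1 is the highest or next highest agami control in each.

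GLU14 belongs to the endoglucanases, which trim cellulose. In agami GLU14 stood at 317, 321 and 281 with salt and 265, 219 and 176 without, and in m103 at 205, 213 and 185 with salt and 338, 310.2 and 319 without (scaled signal). Salt arrays were above controls in agami and below them in m103, without overlap. GLU14 fell by 0.64 in m103 and changed by 0.46 ± 0.19 in agami (adjusted p = 0.3), with a difference of 1.11 ± 0.27 (SE, adjusted p = 0.047), and the call ended without any 1 array other than agami control 1 (adjusted p up to 0.16). Scaled signals of AT1 were 509, 671 and 413 on the agami salt arrays and 503, 510.0 and 384 on the agami controls, beside 252, 244 and 346 on the m103 salt arrays and 465, 577 and 604 on the m103 controls. With salt agami exceeded m103, and the controls overlapped. AT1 had a difference of 1.10 ± 0.24 (SE, adjusted p = 0.024), no longer called without any 1 of agami salt 1 and 2, agami control 3, m103 salt 1 and 2 and m103 control 2 and 3 (adjusted p up to 0.088). CAD3, a cinnamyl alcohol dehydrogenase of lignin synthesis, had scaled signals of 4891, 4125 and 4182 in salt-treated agami and 5604, 3651 and 3197 in control agami, against 4567, 2802 and 3834 in salt-treated m103 and 7065, 6360.1 and 7392 in control m103. The m103 controls were above all other arrays, which overlapped. Its difference was 1.04 ± 0.23 (SE, adjusted p = 0.029), and the call ended without any 1 of agami salt 1 and 3, agami control 2 and 3, m103 salt 2 and m103 control 1 and 3 (adjusted p up to 0.1). CAD3 was the only called gene among 24 of lignin synthesis, beside 0.527% of all probe sets called above 0. The median of the lignin list was 0.27, with median changes of -0.15 in agami and -0.38 in m103.

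BZIP06, a leucine zipper factor, had scaled signals of 1399.6, 1599 and 1283 in salt-treated agami and 1233, 1279.5 and 918 in control agami, against 948, 757 and 1053 in salt-treated m103 and 1444, 1359 and 1372 in control m103. Agami lay above m103 with salt and below it without. The difference was 0.93 ± 0.21 (SE, adjusted p = 0.027), no longer called without any 1 of agami salt 1 and 2, agami control 3, m103 salt 2 and m103 control 1 and 3 (adjusted p up to 0.1). PSK4, the precursor of a phytosulfokine growth peptide, had scaled signals of 1209, 1104 and 1010.5 in salt-treated agami and 943, 756 and 807 in control agami, against 799.8, 898 and 1053 in salt-treated m103 and 1260.5, 1261 and 1207 in control m103. Salt arrays were above controls in agami and below them in m103, and the salt arrays of both cultivars overlapped. PSK4 had a difference of 0.84 ± 0.18 (SE, adjusted p = 0.022) whose call ended without any 1 of agami salt 1, agami control 2 and 3, m103 salt 1 and 2 and m103 control 1 and 3 (adjusted p up to 0.08).

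ALN, the allantoinase of purine breakdown, fell in both cultivars and fell less in agami. Scaled signals of ALN were 2902, 2693 and 2918 on the agami salt arrays and 5097, 5163 and 5469 on the agami controls, beside 1191, 1035 and 1366 on the m103 salt arrays and 3459.5, 3852 and 3600.0 on the m103 controls. Salt arrays lay below controls in both cultivars and agami above m103 in both conditions. The falls were 0.88 (SE 0.10) in agami and 1.60 (SE 0.10) in m103, and the difference of 0.72 ± 0.15 (SE, adjusted p = 0.016) was no longer called without m103 salt 2 (adjusted p = 0.066). UGD4, which makes UDP-glucuronate for wall polysaccharides (0.72 ± 0.13), and CIPK18 kept their calls whichever array was left out, as did IPP (0.68 ± 0.13), whose call ended without the intensity trend. PPOX1 of chlorophyll and haem synthesis (0.82 ± 0.17), GT7 (0.74 ± 0.18) and the peroxidase PRX74 (0.71 ± 0.17) did not. Leaving out 1 array ended the call of PPOX1 without any 1 of agami salt 3, agami control 3, m103 salt 2 and m103 control 3 (adjusted p up to 0.074), of GT7 without any 1 array other than agami salt 2, agami control 1, m103 salt 2 and m103 control 2 (adjusted p up to 0.14) and of PRX74 without any 1 array other than agami control 1, m103 salt 3 and m103 control 2 (adjusted p up to 0.14). The apyrase APY2 (0.57 ± 0.14), ERG3 (0.56 ± 0.14), the cation-chloride cotransporter CCC1 (0.47 ± 0.11) and PAS2B, of very long chain fatty acid synthesis (0.44 ± 0.11), were the smallest named differences beside CIPK2. These calls ended when 1 array was left out, APY2 without any 1 array other than agami control 1 and m103 salt 3 (adjusted p up to 0.16), ERG3 without any 1 array other than agami control 1, m103 salt 3 and m103 control 2 (adjusted p up to 0.13), CCC1 without any 1 array other than agami control 1 and m103 salt 3 (adjusted p up to 0.11) and PAS2B without any 1 array other than agami control 1 (adjusted p up to 0.14). Other probe sets of PAS2B (-0.032 ± 0.17) and CCC1 (1.34 ± 0.71) were not called.

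By gene ID, 4 genes without an informative symbol led the differences. LOC4351887 had -5.85 ± 1.25 (SE, adjusted p = 0.021) on its brightest probe set and -7.46 ± 1.11 (SE, adjusted p = 9.7e-04) on another. Both probe sets passed the filter only through the salt-treated m103 arrays. Scaled signals of LOC4351887 were 6.8, 40.1 and 55.1 on the agami salt arrays and 1.6, 21.3 and 41.5 on the agami controls, beside 5500.4, 6820.3 and 338 on the m103 salt arrays and 48, 6.76 and 3.78 on the m103 controls. The m103 salt arrays stood above the rest, replicate 3 far below the other two, and the agami groups overlapped. The call on this probe set ended without any 1 of agami salt 1, agami control 2 and 3, m103 salt 1 and 2 and m103 control 3 (adjusted p up to 0.089). LOC4352505 had -5.02 ± 0.84 (SE, adjusted p = 0.0033), which was called whichever array was left out. In the other direction LOC4332162 had 2.14 ± 0.47 (SE, adjusted p = 0.026) and LOC4338699 1.99 ± 0.43 (SE, adjusted p = 0.022). The first was no longer called without any 1 of agami salt 1 and 3, agami control 3, m103 salt 2 and 3 and m103 control 1 and 2 (adjusted p up to 0.091), and the second without any 1 of agami salt 1 and 3, agami control 2 and 3, m103 salt 2 and m103 control 1 and 3 (adjusted p up to 0.082). A probe set with no listed gene had the smallest adjusted p of all differences and was singled out after its values were seen. Scaled signals of that probe set were 193, 226 and 210.2 on the agami salt arrays and 230.5, 274 and 182 on the agami controls, beside 5763, 8095 and 7831 on the m103 salt arrays and 271, 323 and 237 on the m103 controls. Only the m103 salt arrays rose above the rest, and the difference was -4.72 ± 0.27 (SE, adjusted p = 3.8e-10).

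Of 28 tested genes known for their part in salt tolerance none had a called difference, and with 1.02% of all probe sets called a list of this size is near that share at 0. Their median difference was -0.13, with 20 below 0. The dehydrin RAB21, which abscisic acid induces, rose by 2.03 ± 0.25 in agami and by 2.63 ± 0.25 in m103, and the difference of -0.60 ± 0.36 (SE, adjusted p = 0.58) did not pass. RAB16B rose in both, with a difference of 0.14 ± 0.46 (SE, adjusted p = 0.96), and P5CS1, of proline synthesis, rose in both with -0.087 ± 0.11 (SE, adjusted p = 0.86). The sodium transporter HKT1-5, which retrieves sodium from the xylem, lay at 0.42 ± 0.29 (SE, adjusted p = 0.66), the kinase CIPK24, which activates sodium export, at -0.12 ± 0.16 and its calcium sensor CBL4 at -0.39 ± 0.40. Larger values that did not pass were -2.30 ± 0.92 for the lectin salT (adjusted p = 0.31) and -1.35 ± 0.36 for NAC071 (adjusted p = 0.071). On the m103 salt arrays salT read 31907, 3747 and 905, and its difference lay between -3.49 and -0.94 when 1 array was left out.

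The other genes of this list did not pass either, and their errors set how much a difference could be seen. NAC factors lay at -0.87 ± 0.74 (NAC048), -0.40 ± 0.43 (NAC2) and -0.057 ± 0.76 (NAC067). The cold and drought factors were at -0.74 ± 1.08 (CBF3), 0.44 ± 1.31 (DREB1B), 0.33 ± 0.32 (DREB2A) and -0.14 ± 0.24 (DREB2B). Glycine betaine synthesis gave -0.37 ± 0.15 for BADH1 and -0.17 ± 0.20 for BADH2, and P5CS2 gave 0.68 ± 0.44. The dehydrin RAB16C was at -0.78 ± 0.43, the zinc finger proteins ISAP1 and SAP8 at -0.17 ± 0.60 and -0.12 ± 0.16, and the MYB factors MYB2 and myb at -0.61 ± 0.73 and -0.033 ± 0.62. ABF2, a factor of abscisic acid signalling, lay at -0.13 ± 0.26, and the kinase SAPK4 at 0.30 ± 0.12. The potassium transporter HAK5 was at 0.11 ± 0.11, the aquaporin PIP1-1 at -0.034 ± 0.18 and the trehalose phosphatase TPP1 at 0.27 ± 0.63. For CBF3, DREB1B, ISAP1, MYB2, myb and TPP1, control replicate 1 was the brightest control in both cultivars. Controls of DREB1B read 1444, 157 and 234 in agami and 1236, 36.5 and 57.3 in m103. What set these arrays apart was not tested.

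In 30 of 49 gene lists no gene had a called difference, which for short lists is near the 1.02% of all probe sets called. For hormone and stress regulators, the differences ran from -1.15 (PP2C30) to 1.48 (PP2C29) in 70 abscisic acid genes, from -1.28 (OPR10) to 0.46 (JAZ7) in 28 jasmonate genes, from -0.19 (EIL1) to 0.30 (METK3) in 12 ethylene genes and from -1.05 (KAO) to 0.43 (SLR1) in 13 gibberellin genes. Among 7 NAC factors they ran from -1.35 (NAC071) to 0.30 (NAC45), among 5 WRKY factors from -1.51 (WRKY71) to -0.19 (WRKY51), and among 10 DREB and ERF factors from -0.74 (CBF3) to 1.34 (DREB1G). The 59 zinc finger genes ran from -1.25 (C3H34) to 0.56 (C3H9) and the 10 growth-regulating factors from -0.37 (GRF12) to 0.11 (GRF10). Among 7 LEA proteins and dehydrins the range was from -1.24 (PM19L) to 0.84 (Emp1), with 2 rising in agami (0.522% of all probe sets) and 5 in m103 (4.17% of all).

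For transport and metabolism, 24 sodium and potassium transporters ran from -0.94 (HAK1) to 1.43 (HAK22) with a median of -0.1, 11 ABC transporters from -1.62 (ABCG45) to 0.89 (ABCG32) and 16 phosphate genes from -1.36 (PHO1-3) to 0.54 (PHT3). The 34 sugar genes ran from -1.42 (SWEET16) to 0.48 (SUS3), 25 beta-glucosidases from -1.09 (BGLU19) to 1.33 (BGLU33) and 10 phytoalexin genes from -1.05 (CPS2) to 0.63 (MAS). For the wall, 25 cellulose synthases and related genes ran from -0.48 (CSLA7) to 1.07 (CSLC3) with a median of 0.24, 22 Casparian strip genes from -1.24 (CASPL1U2) to 1.19 (CASPL2C2) and 6 wall-modifying genes from -1.80 (BURP16) to 0.91 (BURP2). For growth, 35 DNA replication genes ran from -0.66 (MCM8) to 0.49 (ORC2), 25 cytosolic ribosomal proteins from -0.19 (RPS7) to 0.74 (rpl5) and 74 cell cycle genes from -1.37 (KIN7A) to 1.05 (KRP6). Among 16 clock and photoperiod genes the range was from -0.66 (PHYA) to 0.90 (CRYD), where PHYA, a phytochrome, was called only on a dimmer probe set (-0.77 ± 0.18). The marker lists ran from -0.49 (PSAG) to 0.55 (CHLI) for leaf, from -1.24 (CASPL1U2) to 1.19 (CASPL2C2) for root, from -0.59 (GLUA-2) to 0.88 (GLUB-5) for seed and from -1.03 (LOG) to 1.50 (HOS66) for meristem.

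The same difference taken between the ir29-labelled sets, second minus first, takes its group means from none of these 12 arrays. Its filter and its estimate of spread come from all 24 arrays, so its calls are not independent of those above. The ir29-labelled difference was called in 1205 probe sets (3.51%), 607 above 0 (1.77%) and 598 below (1.74%). Of the 349 probe sets called between the japonica cultivars, 297 (85.1%) had the same sign there, against 55.6% of all tested. Both differences were called in 72, which is 20.6% of the 349, and in 71 of them the signs matched, which is 20.3% of the 349 and 5.89% of the 1205. As m103 and the first ir29-labelled set also share the deposited scale (5 and 4 arrays of it), deposit and set cannot be told apart in this likeness.

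Genes whose differences matched in sign included redox, metal and chaperone genes. Nrx1-1 had -1.99 ± 0.22 (SE, adjusted p = 3.2e-05) in the second minus the first ir29-labelled set, GRXC10 -2.51 ± 0.59 (SE, adjusted p = 0.02), MT4A -1.74 ± 0.43 (SE, adjusted p = 0.025), CIPK14 -1.89 ± 0.31 (SE, adjusted p = 0.0023), HSP24.1 -2.16 ± 0.56 (SE, adjusted p = 0.033) and CLPB1 -1.33 ± 0.34 (SE, adjusted p = 0.031). Nrx1-1 read 316, 343 and 295 on the salt arrays and 295, 376 and 273 on the controls of the second ir29-labelled set, against 1642, 1846 and 2139 on the salt arrays and 401, 440.2 and 521 on the controls of the first. For Nrx1-1 the first set's salt arrays were the high ones, as m103's were. The chaperone genes matched in sign but came from other changes. Mean HSP24.1 was 4717 in controls and 768 with salt in the second set, and 732 and 661 in the first. Mean CLPB1 was 2931 in controls and 1137 with salt in the second set, and 804 and 832 in the first. In m103 both genes rose. LTP (-3.0), pinA (-1.93), EXPB6 (-1.03), DOF4 (-0.53), UGD4 (0.62), APY2 (0.50) and ALN (0.91) were called with the same sign too, and LOC4352505 had -6.75 ± 0.84 (SE, adjusted p = 1.4e-04). ADIPOR1 (-0.20 ± 0.28 (SE, adjusted p = 0.78)), Nramp1 (0.29 ± 0.47 (SE, adjusted p = 0.81)) and CIPK2 (0.0008 ± 0.10 (SE, adjusted p = 1)) lay near 0 and did not pass.

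**Figure D5:**
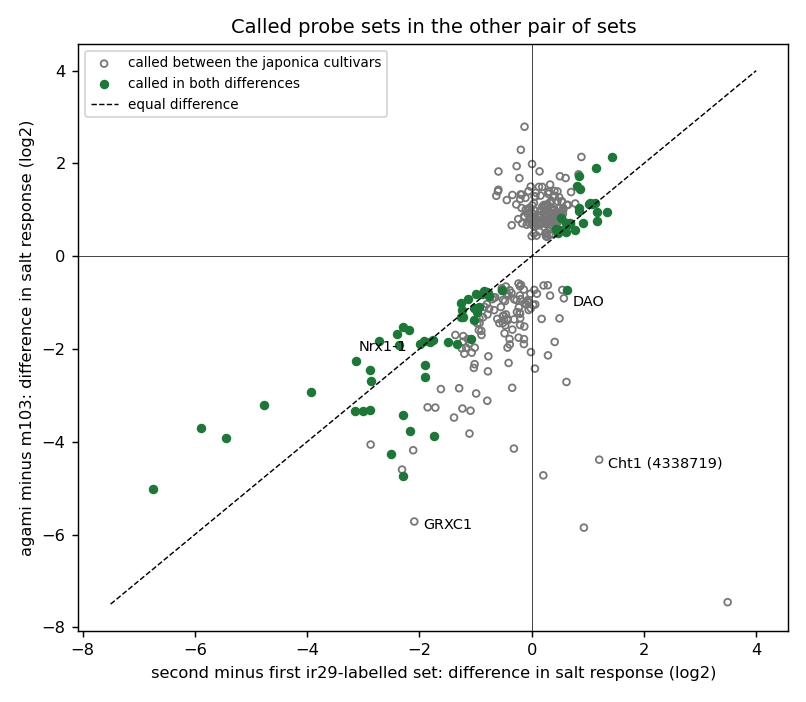
Difference in salt response of agami minus m103 (vertical, log2) against that of the second minus the first ir29-labelled set (horizontal, log2) for the 349 probe sets called between the japonica cultivars, with filled points for the 72 called in both and a dashed line of equal difference. In 297 the signs match, and Cht1 and DAO are labelled among those whose sign does not.

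Whether both differences themselves differed was tested across all 4 sets, and 17 probe sets passed (0.0495%), 9 above 0 (0.0262%) and 8 below (0.0233%), with 3638 at an unadjusted p under 0.05. Of the 349, 8 were among these 17. Cht1 (4338719) had -5.59 ± 0.89 (SE, adjusted p = 0.012): its difference was below 0 between agami and m103 and 1.2 ± 0.63 (SE, adjusted p = 0.32) in the ir29-labelled pair. Cht1 read 1179, 5115 and 3851 on the salt arrays and 66.1, 199 and 127 on the controls of the second ir29-labelled set, against 3147, 4192 and 4324 on the salt arrays and 386, 384 and 453 on the controls of the first. DAO had -1.48 ± 0.26 (SE, adjusted p = 0.028), with 0.57 ± 0.19 (SE, adjusted p = 0.087) between the ir29-labelled sets. DAO read 2343, 2221 and 2105 on the salt arrays and 962, 948 and 965 on the controls of the second ir29-labelled set, against 2134, 2422 and 2581 on the salt arrays and 1253, 1718 and 1672 on the controls of the first. Salt arrays exceeded controls in both ir29-labelled sets for both genes.

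The probe set without a listed gene had -4.93 ± 0.38 (SE, adjusted p = 2.1e-07). It read 217, 148 and 192 on the salt arrays and 404, 311 and 296 on the controls of the second ir29-labelled set, against 163, 109 and 159 on the salt arrays and 279, 345 and 287 on the controls of the first. Salt arrays lay below controls in both ir29-labelled sets and above them in m103. LOC4351887 had -10.95 ± 1.56 (SE, adjusted p = 0.007) on the probe set with the larger difference, which passed the filter only through the salt-treated m103 arrays. LOC4325589 (1.09 ± 0.19 (SE, adjusted p = 0.028)) and LOC4333806 (1.10 ± 0.18 (SE, adjusted p = 0.018)) were called above 0, and LOC4331274 (-1.27 ± 0.23 (SE, adjusted p = 0.032)) below it. Of the named genes not called between agami and m103, the chitinase Cht11 had 3.63 ± 0.64 (SE, adjusted p = 0.028), with differences of -1.41 between agami and m103 and -5.04 between the ir29-labelled sets, and NEDD8 (4341684) had -1.0 ± 0.18 (SE, adjusted p = 0.037). The count of 17 was 6 without agami control replicate 2, m103 control replicate 1 or m103 control replicate 3, and 109 without agami control replicate 1. It was 10 without agami salt replicate 1 or agami control replicate 3, 7 without agami salt replicate 3 and 42 without m103 salt replicate 1.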

How the data were processed

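Total RNA was hybridised as biotin-labelled cRNA to 24 arrays, 1 per sample. For each of 57381 probe sets the deposited table holds a linear intensity, and the submitters' processing notes name GCOS 1.2 as the authors' tool. Which signal algorithm was used is not stated in the labels or headers. Signals above background cannot be told from this table, and the number of arrays limits the precision.

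Each array was multiplied to a mean of 500 after leaving out 2% of probe sets at each end, and log2(scaled signal + 16) was taken. After 187 control probe sets had been removed, 57194 were left, and the 34316 of them with a mean above the 40th percentile (a scaled signal of about 28) were tested. That mean spans all 24 arrays, so a probe set can pass through 1 bright group. GRXC1, the probe sets given for LOC4351887 and the dimmest of NSHB1 passed only through the salt-treated m103 arrays. Limma 3.58.1 in R 4.3.3 fitted 1 mean for each of the 8 groups to all 24 arrays, with moderated two-sided tests that follow the intensity trend and Benjamini-Hochberg adjustment over all probe sets tested. All p-values given are from limma. The arrays of a group are separate samples by their titles. P-values rest on the spread within groups, pooled over all 8 groups and moderated, not on that of agami or m103 alone. The standard errors of the agami and m103 changes are therefore equal for a probe set, even where the arrays of 1 group vary more. The script was tested on simulated data.

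Alternatives changed the scaling, the number added, the filter, the prior variance, the arrays fitted, the replicate number as a block and the arrays left out. Plots were made with matplotlib 3.10.9.

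Under the platform's old annotation 22436 probe sets have 1 gene, 95 have several and 34850 have none. RefSeq's gene table (ASM3414082v1), from which only names were taken, held all 22436 IDs, and 3176 probe sets of 2442 genes had an informative symbol. Genes were read by their brightest tested probe set. The named genes are the 15 largest called differences in each direction, called members of 49 gene lists, the extreme members of lists without a call, the genes of a salt-tolerance list, and the 2 largest differences in each direction of genes without a symbol. Values on every array are given for the 8 largest in each direction and for called members of lists with 2 or more calls, beside single further genes. Left out of this were DAO, IAA1 (4334069), GLN1-2 and BZIP52, whose agami and m103 arrays are not listed. The comparison, the lists and these rules were chosen with earlier results of these data known, and the lists were revised when the annotation had been read. Genome coordinates and probe sequences were not used here.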

Additional observations from a re-analysis of the deposited data

Results flagged for a closer look

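The salt response differed between agami and m103 by a test of the difference itself in 349 probe sets, and the japonica difference differed from the ir29-labelled difference in 17. The named genes and the 4 genes known by ID that passed the first test are given here with their differences, agami minus m103, on the log2 scale. Their standard errors and adjusted p-values stand with the results above. Those with the lower change in agami were led by GRXC1 (-5.72), Cht1 (gene 4338719, -4.39), GRXC10 (-4.26), MT4A (-3.89), HSP24.1 (-3.77), LTP (-3.34), NSHB1 (-3.28) and NAS2 (-2.85). They also included CIPK14 (-2.60), GRXC15 (-2.33), Nramp1 (-2.14), Nrx1-1 (-1.89), CLPB1 (-1.89), pinA (-1.83) and PIP2-4 (-1.78). Smaller differences below 0 were those of hsp17.9 (-1.61), BHLH063 (-1.52), Hox22 (-1.44), BZIP52 (-1.36), EXPB6 (-1.11), DOF2 (-1.10), HAP3F (-1.05) and RR2 (-1.04). They also included IVD (-1.03), GLO5 (-0.97), OSL2 (-0.94), CKX11 (-0.93), DAO (-0.91), GLN1-2 (-0.89), IPA1 (-0.85) and DOF4 (-0.74). Those with the higher change in agami were led by ADIPOR1 (1.33), GER8 (1.31), GLU14 (1.11), AT1 (1.10), GER4 (1.08), CAD3 (1.04), BZIP06 (0.93) and PSK4 (0.84). They also included PPOX1 (0.82), IAA1 (gene 4334069, 0.79), GT7 (0.74), CIPK18 (0.73), UGD4 (0.72), ALN (0.72) and PRX74 (0.71). Smaller differences above 0 were those of CIPK2 (0.43), PAS2B (0.44), CCC1 (0.47), ERG3 (0.56), APY2 (0.57), MADS56 (0.66) and IPP (0.68). By gene ID the values were LOC4351887 (-5.85), LOC4352505 (-5.02), LOC4332162 (2.14) and LOC4338699 (1.99). Outlying arrays were not searched for, since groups of 3 are too small for it.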

How the results depend on the processing

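None of the 349 called differences changed its sign in the 21 distinct alternatives, and none of the 17 probe sets of the 4-set test in its 20, but counts of calls moved. Alternatives in the filter, the prior variance or the block leave the difference itself as it is, so its sign could not change there. Leaving out the m103 array of the other deposited scale is the same as leaving out m103 salt replicate 1. The 349 differences (181 higher in agami, 168 lower) were 230 (114 higher) with arrays centred on their medians and 131 (53 and 78) without the intensity trend. Leaving out 1 of the 12 arrays gave between 128 and 755 calls, with 56 to 470 higher and 72 to 289 lower. The lowest count was that without m103 salt replicate 2 and the highest that without agami control replicate 1. The 17 probe sets of the 4-set test (9 higher, 8 lower) were 10 (3 lower) with median centring, 31 (16 and 15) with 64 added, 6 (3 and 3) without the intensity trend and 42 (28 and 14) without the m103 array of the other deposited scale, and 5 were lower without the filter. With 1 array left out they were 6 to 109, with 3 to 85 higher and 3 to 24 lower. Of the 57 named and ID-only genes, 21 kept their call whichever array was left out, 21 under all other settings and 18 under both. Among the other settings, calls of these genes ended in 33 without the intensity trend, in 19 without the m103 array of the other scale, in 15 with median centring, in 13 without the filter, in 8 with the japonica arrays alone, in 6 with 1 added and in 6 with the replicate block. Where a call ended, the cause was not tested.

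With the replicate number as a block within each set, 579 differences were called (307 higher, 272 lower), and 49 (27 and 22) in the 4-set test. In agami and m103, deviations from the group mean of same-numbered salt and control arrays correlated between -0.019 and 0.082. Those of differently numbered arrays correlated between -0.102 and 0.068. Such weak correlations over all tested probe sets cannot decide whether the numbers pair the samples. Dim probe sets are limited by the added 16, and with 3 arrays per group smaller differences may not pass.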
